A study of Mus musculus with 8 samples.

Results

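The immunoglobulin heavy variable segments (Ighv) are the coding blocks from which the antigen-binding end of an antibody heavy chain is built. They were taken as all genes on chromosome 12 of the mouse genome (GRCm38, GENCODE M21) whose symbols begin with Ighv, of any biotype, each with 500 bases to either side. This gave 185 segments of 53843 genes on the autosomes and X. They lie between positions 113572927 and 116010093, from 150 to 2587 kb from the start of Ighm, the gene of the IgM constant region. Of these, 113 are annotated as V genes, 70 as V pseudogenes and 2 as IG_LV genes, and 183 are on the minus strand, which is the strand of Ighm. Symbols carry the family number first, and the families are interspersed but ordered, with the Ighv2 and Ighv5 families nearest to Ighm and the large Ighv1 family farthest.

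Whole-genome bisulfite sequencing was used to read the methylation of CpGs in resting CD43- B cells and in naive CD4+CD62L+ T cells, sorted from spleens of C57BL/6J mice, an inbred strain, at 6 to 8 weeks of age. No animal carried a transgene or a treatment that the labels name, and each sample pooled cells of several mice. The 8 samples form 4 groups of 2, a B and a T cell group from each sex. Each group has 1 deposited file, so that a B and T cell difference was seen once in each sex and no spread between pools of 1 kind is known. Bisulfite reads 5-methylcytosine and 5-hydroxymethylcytosine alike.

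Antibody heavy chains are assembled in B cell precursors by V(D)J recombination. The RAG recombinase cuts at recombination signals, each a heptamer and a nonamer set apart by a spacer, first joining a D to a J segment and then a V segment to the joined DJ. When the joined segments lie in the same orientation, the DNA between them is cut out of the chromosome, and the piece cut out is lost as cells divide. Naive T cells assemble their own receptor loci and largely leave the V segments of the heavy chain unjoined. In these bulk samples, fewer copies of a segment per cell and a smaller share of cells that keep it cannot be told apart.

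Pooled over the segments, methylation was lowest around the coding end, where the recombination signal lies when one is present. This stretch is shown for 5 segments, from 45 bases before to 105 bases after the coding end, 5′ to 3′ on the minus strand of GRCm38. Capitals mark the heptamer, the nonamer and every CpG. Ighv1-18 is shown as the segment called for methylation between B and T cells, and Ighv1-26 because its CpG after the signal, also 89 bases from the coding end, was lower in B cells too. Ighv1-85 is the farthest V gene from Ighm. Ighv8-6 had the lowest and Ighv10-4, a pseudogene, the highest mean methylation among the segments tested, and in neither was a signal found.
Ighv1-18 (chr12:114682527-114682676): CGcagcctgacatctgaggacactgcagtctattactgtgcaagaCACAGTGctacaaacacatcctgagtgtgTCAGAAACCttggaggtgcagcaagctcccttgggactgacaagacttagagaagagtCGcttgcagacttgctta
Ighv1-26 (chr12:114788267-114788416): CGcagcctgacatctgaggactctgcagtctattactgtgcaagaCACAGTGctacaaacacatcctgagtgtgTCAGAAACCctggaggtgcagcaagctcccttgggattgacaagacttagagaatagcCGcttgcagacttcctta
Ighv1-85 (chr12:115999923-116000072): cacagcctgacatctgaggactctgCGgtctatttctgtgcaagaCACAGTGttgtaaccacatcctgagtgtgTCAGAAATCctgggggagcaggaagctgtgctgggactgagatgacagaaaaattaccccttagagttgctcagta
Ighv8-6 (chr12:115165672-115165821): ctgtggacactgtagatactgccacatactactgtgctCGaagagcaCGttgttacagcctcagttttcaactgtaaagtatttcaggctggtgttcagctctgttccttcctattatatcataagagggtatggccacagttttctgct
Ighv10-4 (chr12:114547153-114547302): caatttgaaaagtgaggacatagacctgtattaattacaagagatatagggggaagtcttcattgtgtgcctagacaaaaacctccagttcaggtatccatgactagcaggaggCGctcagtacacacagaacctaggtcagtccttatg

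The signal was searched for on the strand of the segment, from 10 bases before to 60 bases after the coding end, as a heptamer like CACAGTG that begins with CAC and a nonamer like ACAAAAACC with 22 to 24 bases between them and at least 12 of 16 bases matched. It was found in 130 of 185 segments (70.3%), against 14 of 2295 other genes on chromosome 12 (0.610%) searched in the same way. It was found in 98 of the 113 V genes and in 32 of the 70 pseudogenes. The spacer had 22 bases in 73 segments, 23 in 55 and 24 in 2. An exact CACAGTG was present in this stretch in 109 segments (58.9%) and in 24 of the other genes (1.05%). The other genes include the D and J segments of this locus, so their shares are not those of genes free of signals.

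The median coverage of an autosomal CpG was 14 and 15 reads in the female and male B files and 17 and 16 in the T files, and no file lists a CpG with under 5 reads. Promoters of 5 B cell genes (Cd79a, Cd79b, Ms4a1, Blk and Cd22) were lower in both B files than in both T files, at 8.19 to 32.8% against 35.9 to 93.6%. Promoters of 6 T cell genes (Cd3d, Cd3e, Cd3g, Lck, Cd5 and Cd6) lay at 64.6 to 95.5% in the B files and at 1.87 to 29.4% in the T files. The 2 natural killer cell and the 2 plasma cell promoters did not separate the files. Of the 4 myeloid promoters 2 were lower and 1 was higher in B cells, and of the 2 erythroid promoters 1 was lower in B cells.

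B cells had fewer reads over the segments than T cells, and the fewer the nearer a segment lay to Ighm. Relative coverage is used here for the mean number of reads per CpG of a segment divided by the autosomal median of the file, so that 1 is the level of a typical autosomal CpG. A CpG that a file does not list was counted at 4 reads, the most it can hold, so a low value of a B file is an upper limit. Segments have few CpGs, with a median of 6 and a range from 0 to 25 in the reference. The 172 segments with at least 3 listed CpGs were tested, 11 had 1 or 2, and 2, Ighv1-48 and Ighv1-77, have none.

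Over all 172 segments the median relative coverage was 0.579 and 0.604 in the female and male B files and 0.961 and 1.01 in the T files. Both B files lay below both T files at 132 segments, where 19.1% of all regions tested do so. After adjustment over all 50335 regions, 52 segments were lower in B cells and 0 were higher (limma's moderated test on log2 relative coverage, fitted on cell type plus sex, adjusted p under 0.05). The share of all regions called lower is 0.35%. Segments with few CpGs listed in the B files passed the filter through the T files, and over listed CpGs alone, with at least 3 in every file, 30 of 143 were called lower. The median log2 difference, B minus T, was -0.69 over the segments and -0.018 over all regions.

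The segments were divided by their order from Ighm into a near set of 62 (150 to 891 kb), a middle set of 62 (897 to 1514 kb) and a far set of 61 (1523 to 2587 kb). In the near set the median relative coverage was 0.408 in the female B file, 0.961 in the female T file, 0.451 in the male B file and 1.01 in the male T file. In the middle set these values were 0.619, 0.98, 0.64 and 1.02. In the far set they were 0.786, 0.941, 0.833 and 1.00. The B values rose from set to set in both sexes, while the T values stayed within 0.941 to 1.02. Of the segments tested, 46 of 60 were called lower in B cells in the near set, 5 of 59 in the middle set and 1 of 53 in the far set. Over the near set, 60.5 and 69.1% of reference CpGs were listed in the B files and 96.3 and 97.7% in the T files. Near segments could thus pass the filter through the T files, so these counts are not read as a gradient. The log2 ratio of near to far coverage was -0.94 in the female B file and -0.89 in the male B file, against 0.030 and 0.016 in the T files. The B minus T difference of this ratio was -0.94 (exact permutation test over the 4 files, two-sided p = 0.333, which is the smallest p that 4 files allow). Over listed CpGs alone this difference was -0.82.

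**Figure D1:**
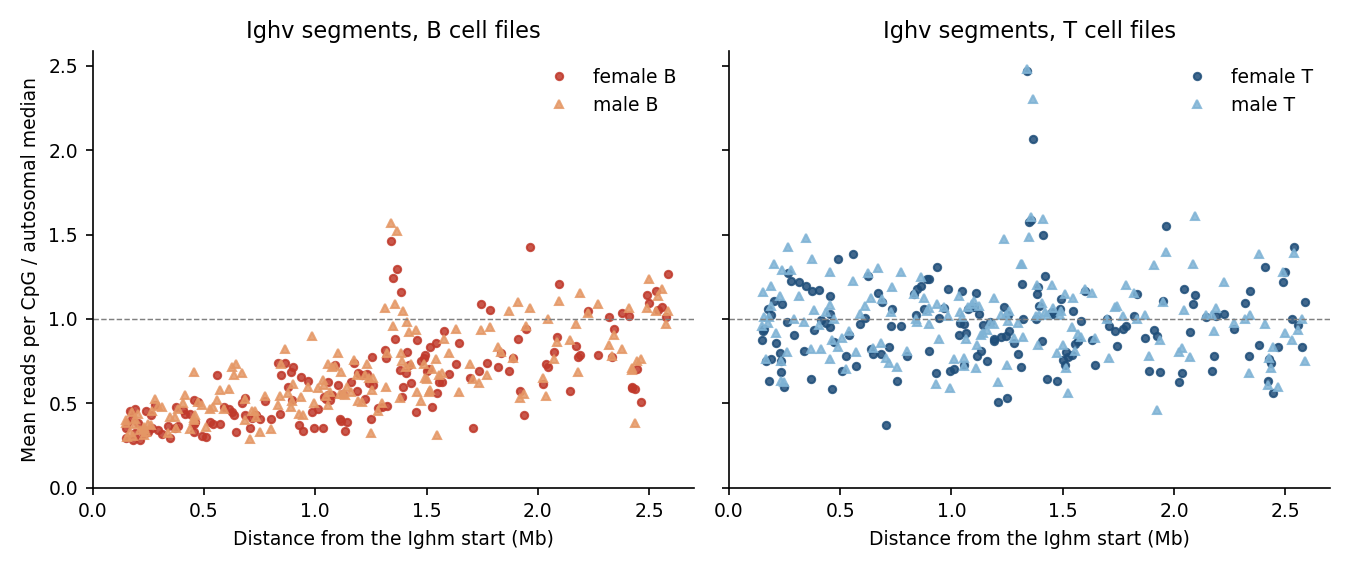
Each point is 1 of 172 Ighv segments, with the distance of the segment from the Ighm start in Mb on the x axis and its mean reads per CpG over the autosomal median of the file on the y axis (linear, from 0). Circles are female and triangles male files; the dashed line is 1. In the B cell files (left) the near set has medians of 0.408 and 0.451 and the far set 0.786 and 0.833, while the T cell files (right) scatter around 1 throughout.

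The 3 segments nearest to Ighm are Ighv5-1 and Ighv2-1, both pseudogenes, and Ighv5-2, the nearest V gene. Ighv5-1 had relative coverage of 0.297 in the female B, 0.873 in the female T, 0.385 in the male B and 0.957 in the male T file. Of its 13 CpGs, 2 and 4 were listed in the B files and 12 and 13 in the T files. The ratio of B to T was at most 0.37 (log2 -1.44 ± 0.17 SE, limma adjusted p = 7.88e-05), and with unlisted CpGs at 0 reads the log2 difference was -3.11 (limma adjusted p = 0.00136). Ighv2-1 stood at 0.357, 0.931, 0.4 and 1.16 in the same order, a ratio of 0.363 (adjusted p = 7.72e-05, limma). Of its 12 CpGs, 6 and 8 were listed in the B files, and over listed CpGs alone the log2 difference was -1.27 (limma adjusted p = 0.000895). Ighv5-2 stood at 0.385, 0.941, 0.303 and 1.01, a ratio of 0.35 (adjusted p = 6.68e-05, limma). Of its 13 CpGs, 6 and 5 were listed in the B files, 13 in each T file and 0 in all 4. Over listed CpGs alone the log2 difference of Ighv5-2 was -1.20 (limma adjusted p = 0.00244). At each of the 3 both B files were below both T files by more than the female and male files of 1 cell type differed. Counting unlisted CpGs at 4 reads draws the B files together, which limits this comparison.

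The 3 segments farthest from Ighm showed no such gap. Ighv1-84, a V gene, had relative coverage of 1.07 in the female B, 0.965 in the female T, 1.18 in the male B and 0.938 in the male T file (log2 0.24 ± 0.18 SE, limma adjusted p = 0.802). Ighv1-85 stood at 1.01, 0.832, 0.971 and 1.00 (adjusted p = 0.938, limma). Ighv1-86, a pseudogene and the last segment of the locus, stood at 1.27, 1.1, 1.05 and 0.75 (adjusted p = 0.776, limma). At Ighv1-85 and Ighv1-86 the B and T files overlapped, and at Ighv1-84 both B files were the higher.

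With unlisted CpGs at 4 reads, the 6 segments with the lowest ratios of B to T lay within 203 to 373 kb of Ighm. This order depends on that setting: with unlisted CpGs at 0 reads, Ighv5-1 and Ighv5-2 (log2 -3.11 and -2.45) were lower than Ighv5-9, Ighv2-6-8 and Ighv5-6 (log2 -2.05, -1.98 and -1.94). Ighv2-9-1, a V gene 347 kb from Ighm, had the lowest, with relative coverage of 0.298 and 0.422 in the female and male B files and 1.2 and 1.48 in the T files. Its ratio was 0.267 (log2 -1.91 ± 0.21 SE, limma adjusted p = 4.47e-05), and 1 and 5 of its 6 CpGs were listed in the B files. The pseudogene Ighv5-11 followed at a ratio of 0.299, with 0.357 and 0.453 in the B files and 1.27 and 1.43 in the T files. Ighv2-6-8, Ighv5-9, Ighv5-9-1 and Ighv5-6, all V genes, had ratios of 0.327, 0.329, 0.332 and 0.338, with B files between 0.318 and 0.479 and T files between 1.09 and 1.35. The B and T files overlapped at none of these 6 segments, which were chosen for the largest differences, so that is no separate result.

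In 5 sets of 37 segments by distance, the one with the most CpGs listed in all 4 files was taken from each. Ighv5-12 at 279 kb, a V gene, had relative coverage of 0.493 and 0.527 in the B files and 1.22 and 1.29 in the T files (ratio 0.406). Ighv11-1 at 559 kb, with 24 CpGs, had 0.667 and 0.522 against 1.38 and 1.23 (ratio 0.453, log2 -1.14 ± 0.14 SE, limma adjusted p = 0.000125). The Ighv11 family is known from B-1 cell antibodies that bind phosphatidylcholine. The pseudogene Ighv10-4 at 1125 kb had 0.558 in both B files and 1.03 and 1.08 in the T files (ratio 0.529, limma adjusted p = 0.0127; 0.0763 at the same ratio with unlisted CpGs at 0 reads). The pseudogenes Ighv8-7 and Ighv8-10, at 1835 and 2097 kb, had ratios of 0.749 and 0.851 (limma adjusted p = 0.41 and 0.765). At Ighv8-7 the B files, 0.798 and 0.807, were still below the T files, 1.15 and 1.00, and at Ighv8-10 the female files crossed, 1.21 in B and 1.14 in T cells.

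**Figure D2:**
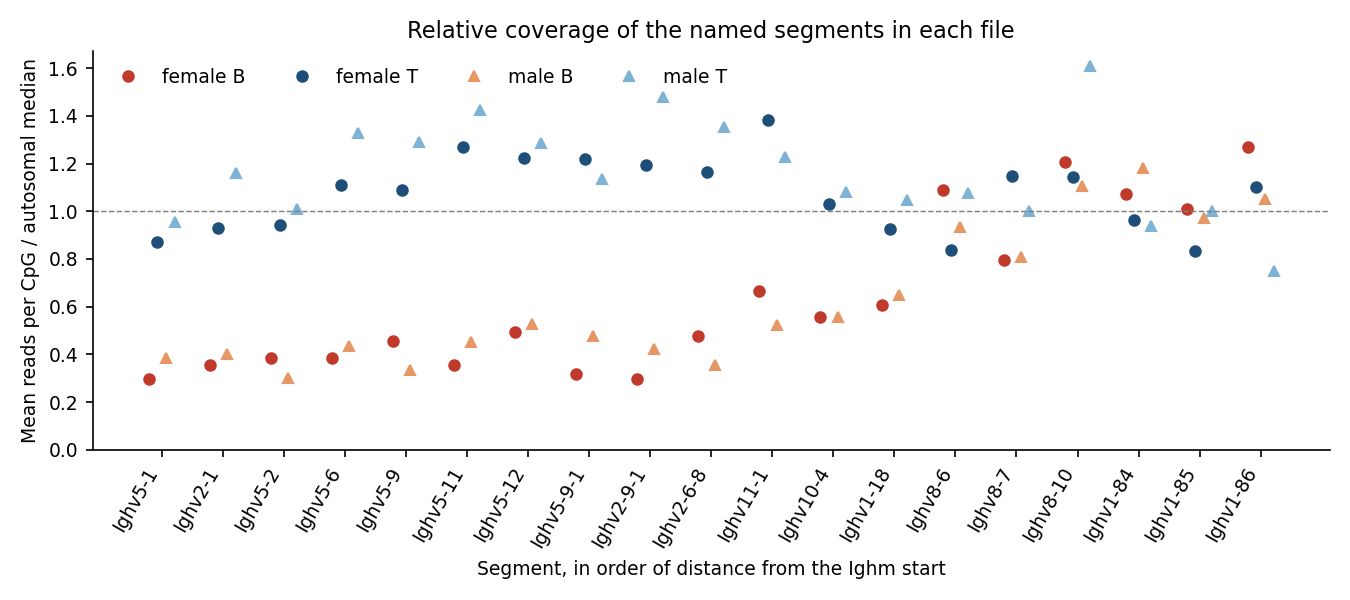
Relative coverage (mean reads per CpG over the autosomal median, linear axis from 0) of the 19 named segments in each of the 4 files, in order of distance from the Ighm start. Circles are female and triangles male, red and orange are B cells, dark and light blue are T cells. From Ighv5-1 to Ighv1-18 every B point is below every T point of the same segment, and from Ighv8-6 on they mix, except at Ighv8-7 and Ighv1-84.

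Calls were made on V genes and pseudogenes alike. Among V genes 35 of 109 tested were called lower and among pseudogenes 16 of 62, with median ratios of 0.64 and 0.60. Segments of families near Ighm could pass the filter through the T files, so their counts are not read against those of far families. By family, the counts were as follows. Of the Ighv2 family (152 to 456 kb) 10 of 11 tested were called, with a median ratio of 0.368, and of the Ighv5 family (150 to 897 kb) 16 of 21, with a median ratio of 0.421. Of the Ighv3 family (542 to 900 kb) 5 of 8 were called at a median ratio of 0.501, and of the Ighv9 family (671 to 877 kb) 3 of 4 at 0.503. Of the Ighv7 family (474 to 800 kb) 4 of 4 were called, of the Ighv14 family (509 to 754 kb) 2 of 4, of the Ighv6 family (181 to 1033 kb) 2 of 6, of the Ighv12 family (685 to 944 kb) 1 of 3 and of the Ighv10 family (1056 to 1125 kb) 1 of 4. Of the smallest families, Ighv4 and Ighv11 had 2 of 2 called, Ighv13 and Ighv15 1 of 2, and Ighv16 0 of 1. Of the Ighv1 family (929 to 2587 kb) 2 of 84 were called at a median ratio of 0.733, and of the Ighv8 family (910 to 2435 kb) 0 of 14 at 0.849. The segments just inside the threshold were Ighv1-2 and Ighv14-4 (limma adjusted p = 0.0426 and 0.0445), and just outside were Ighv15-2 and Ighv8-2 (0.0503 and 0.0664).

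The farthest segment called was Ighv1-45 at 1547 kb, which was chosen for mention after its value was seen. Across the 172 segments, which share the 4 files, Spearman's rho between distance and the log2 difference was 0.87, given as a description. With 1 prior variance for regions of all sizes, in place of one that followed the number of CpGs, 0 segments passed the adjustment, while 118 of 172 had an unadjusted p under 0.05 in either fit. The calls on single segments therefore rest on how the spread of small regions is estimated.

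Near-identical copies are frequent in this locus. At 111 of the 185 segments every listed CpG lay in a stretch of 100 bases that was unique on chromosome 12 after conversion in silico, and at 8 segments under 50% did. With the other CpGs left out, 52 of 162 segments were called lower and 0 higher. Ighv1-23, Ighv1-25 and Ighv1-26, neighbours at 1342 to 1366 kb, had relative coverage over 1.5 in both T files, up to 2.48. At Ighv1-23 it was 1.46 and 1.57 in the B files and 2.47 and 2.48 in the T files, and 66.7% of its CpGs were unique. The log2 differences, B minus T, were -0.71, -0.70 and -0.63 at the 3 segments, none of them called.

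The same gradient was seen without regard to segments in bins of 50 kb. Of the 50 bins that span the segments, 37 had lower relative coverage in B cells and 0 higher (limma adjusted p under 0.05 over 47941 bins, of which 0.684% were called lower). The first bin, centred 152 kb from Ighm, had relative coverage of 0.363 and 0.362 in the B files and 0.8 and 0.828 in the T files, a ratio of 0.453 in females and 0.438 in males. The last, centred at 2602 kb, had ratios of 0.969 and 1.09. In between, the ratio reached 0.5 in both sexes at 652 kb, 0.6 at 1002 kb, 0.7 at 1352 kb, 0.8 at 1802 kb and 0.9 at 2202 kb. The female and male ratios, from separate files, gave a Pearson's r of 0.96 across the 50 bins, as a description. Per Mb of distance, relative coverage rose by 0.19 in the female and 0.204 in the male B file and changed by -0.027 and -0.031 in the T files. The rise was not even. The ratio was lowest at 402 kb in females (0.443) and at 202 kb in males (0.379). The B values there are upper limits, as only 83 of 192 and 85 of 272 CpGs were listed in all files. In the female B file relative coverage was 0.363 in the first bin and 0.42 at 402 kb, against 0.8 and 0.947 in the female T file. The place of the minimum is therefore not read as the place of the largest loss. The ratio went up from bin to bin in 31 of 49 steps in females and 34 of 49 in males, and the mean size of a step in either direction was 0.0513 and 0.0385. The farthest bin called lay at 2152 kb and the nearest one not called at 1902 kb (limma adjusted p = 0.563). The spread between files was in effect taken as equal for all bins of a size in this fit, so the p-values of single bins rest on an average spread.

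**Figure D3:**
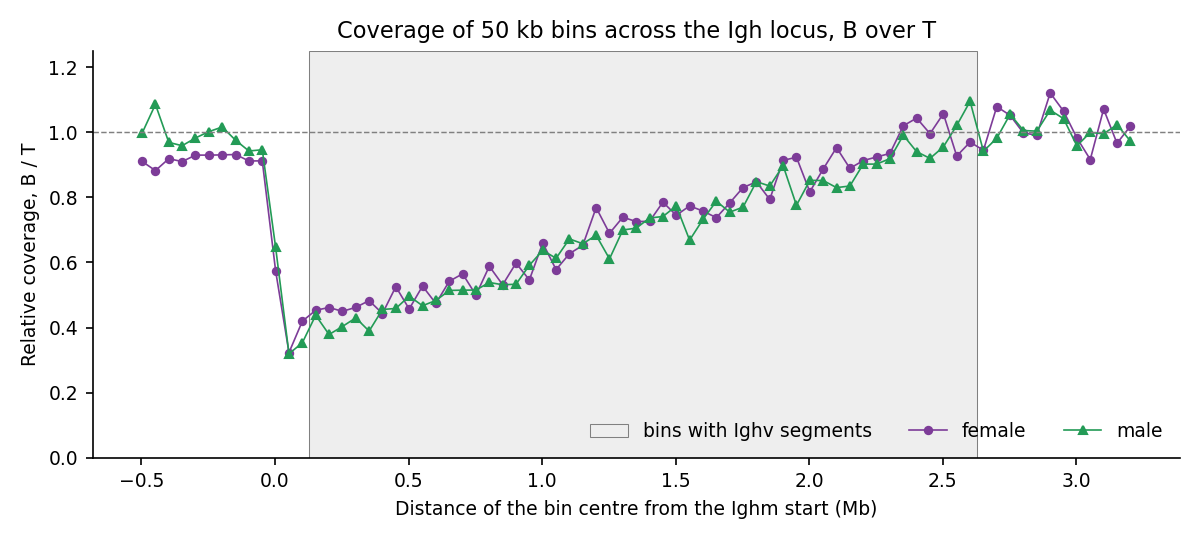
Relative coverage in B cells divided by that in T cells in bins of 50 kb, by the distance of the bin centre from the Ighm start (linear axes), for females (circles) and males (triangles). The grey area spans the 50 bins with Ighv segments. The ratio falls to 0.323 and 0.319 just beyond Ighm, starts at 0.453 and 0.438 in the grey area, stays low with minima of 0.443 and 0.379 over its first bins, and then rises to 0.969 and 1.09 at its far end; bins on either side of the locus lie near 1.

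The rest of the locus places these values. The 10 bins on the constant side of Ighm had ratios from 0.882 to 1.09 and the 12 bins beyond the last segment from 0.916 to 1.12, with 0 called on either side. The bin that holds Ighm and the J segments, centred 2 kb from the Ighm start, is in neither group. It had ratios of 0.574 in females and 0.646 in males and was called lower (limma adjusted p = 1.37e-34). The bin with most of the D segments, centred 52 kb from Ighm, had the lowest ratios, 0.323 in females and 0.319 in males. Only 25 of its 291 CpGs were listed in all files, so its B values are upper limits too. The 17 D segments tested had a median of 0.286 and 0.267 in the B files, the value given to a segment with no listed CpG, against 1.04 and 1.19 in the T files. They passed the filter mostly through the T files, so that their low values were fixed by the filter and nothing is read from how many were called. Of the 4 J segments 3 were called lower and of the 8 constant region genes 0. Still, the constant region genes next to the J segments, Ighm and Ighd, had log2 differences of -0.45 and -0.41 (limma adjusted p = 0.139 and 0.195). At the other constant region genes these were -0.12 to 0.0053. Ighj1 and Ighj2 also stood near the value of no listed CpG, at 0.286 and 0.321 in the female and 0.314 and 0.367 in the male B file. The J regions with their flanks overlap, so their calls can share CpGs, and nothing is read from the J count either. Adam6a and Adam6b, genes that lie between the D and V segments, were both lower, at a median ratio of 0.394. None of 41 genes within 1 Mb on the constant side and none of 20 on the variable side was called, with median ratios of 0.952 and 1.01.

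The loss of reads differed from that at the variable segments of the other receptor loci. Of 137 Igkv segments, the variable segments of the kappa light chain, 0 were called lower and 0 higher, with a median ratio of 0.938. Of 98 Trav and Trdv segments of the T cell receptor, 35 were higher in B cells, at a median ratio of 1.51, and of 35 Trbv segments 15 were, at 1.67. The median log2 coverage of Ighv minus that of Igkv was -0.47 and -0.45 in the B files and 0.20 and 0.17 in the T files. This difference of -0.64 between cell types had the smallest exact permutation p that 4 files allow, 0.333, as had those against Trav and Trdv (-1.65) and Trbv (-1.55).

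Taken as a whole, the segments differed little in their median methylation between the cell types. A segment needed 3 CpGs listed in all 4 files, which left 134 of 185, and the filter fell harder on the near set, where B files list fewer CpGs (36 of 62 segments tested) than on the middle and far sets (48 of 62 and 50 of 61). The share of reference CpGs listed over the near set was 60.5 and 69.1% in the B files and 96.3 and 97.7% in the T files. The median methylation level was 66.7% in both B files and 68.9 and 70.0% in the female and male T files. The median difference, B minus T, was -0.74 percentage points, against 0.27 over all regions. It was below 0 in both sexes at 55 segments, above 0 in both at 38 and of opposite sign at 39.

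A single segment, Ighv1-18, was called (quasi-binomial model of cell type plus sex, adjusted p under 0.05 and a difference of at least 20 points), where 0.725% of all 51695 regions were. In all, 14 had an unadjusted p under 0.05. Ighv1-18 is a V gene of the middle set, 1260 kb from Ighm. Only 3 of its CpGs were listed in all 4 files, the fewest that the filter allows. Its level was 30% in the female B file (30 reads), 96.1% in the female T file (51 reads), 28.6% in the male B file (35 reads) and 96.5% in the male T file (57 reads). The B files were 66.1 and 67.9 points below the T files (quasi-binomial F test, adjusted p = 0.0498). This adjusted p is at the threshold, and no segment was called in any fit that left out 1 file.

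The spread of methylation estimated over regions of all sizes is wide, and an alternative added after the data were seen let it follow the number of reads. Under it 9 segments were called, 3 higher and 6 lower in B cells, where 1.15% of all regions were called. The segments lower in B cells were Ighv1-18, Ighv1-26, Ighv1-33, Ighv1-22, Ighv1-32 and Ighv8-2, and all of them lay in the middle set, between 1040 and 1421 kb. Ighv1-26 stood at 60.6 and 64.2% in the B files and at 96.7 and 93.2% in the T files, and Ighv1-33, a pseudogene, at 80.3 and 71.1% against 99.2 and 98%. The V gene Ighv8-2 stood at 32.1 and 43.5% against 65.5 and 64.5%. The segments higher in B cells were Ighv1-35, Ighv1-71 and Ighv1-62-2. The pseudogene Ighv1-35, 1453 kb from Ighm and so next to those that were lower, stood at 84 and 76.8% in the B files and 52.1 and 41.6% in the T files. The V gene Ighv1-71, at 2319 kb, stood at 47.3 and 44.7% against 25.3 and 22.6%. At each of these segments the female and male differences had the same sign, which the rule for calls favours, so that is no separate result. Not all of their CpGs lie in unique sequence, with 50% at Ighv1-33, 45.5% at Ighv1-62-2, 71.4% at Ighv1-71 and 83.3% at Ighv1-26. With the other CpGs left out, a further alternative added after the data were seen, 8 of 116 segments were called, 2 higher and 6 lower, where 1.15% of all regions were. Ighv1-33 and Ighv1-62-2 were then no longer called, at -9.50 and 21.2 points (quasi-binomial F test, adjusted p = 0.249 and 0.0628). Ighv8-13, a V gene at 2343 kb named here after its value was seen, was called lower in B cells, at -23.3 points (quasi-binomial F test, adjusted p = 0.0404).

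Within a segment the methylation was not even. Upstream of the segments the pooled level was 83.7 and 82.6% in the female and male B files and 87.6 and 88.3% in the T files, over 243 CpGs listed in all files. In the bodies it was 60.3 and 59.2% against 61.2 and 61.6% over 339 CpGs. Downstream it was 53.9 and 53.4% against 57.6 and 56.4% over 243 CpGs. The B minus T differences of -4.79, -1.66 and -3.37 points each had the exact permutation p of 0.333, the smallest possible. These levels are pooled over reads, so segments with fewer reads in B cells weigh less in the B files. The differences can therefore also carry the difference in coverage.

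In windows of 50 bases, drawn after the data were seen, the lowest pooled levels by distance from the coding end lay between 50 bases before and 150 bases after it, in all 4 files, a stretch that reaches past the signal. In the last 50 bases of the coding sequence the level was 31.6% in the female B, 29.3% in the female T, 32.7% in the male B and 32.8% in the male T file, over 88 CpGs of 72 segments. In the 100 to 150 bases after the coding end it was still 33.8, 36.6, 33.0 and 34.3%. In the window 450 to 500 bases after the coding end it had reached 85.1, 88.1, 86.3 and 84.1%. Upstream of the start, between 400 and 350 bases before it, the level was 94.5, 94.2, 94.8 and 95.8%. The fall toward the coding end was seen in both cell types and both sexes.

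**Figure D4:**
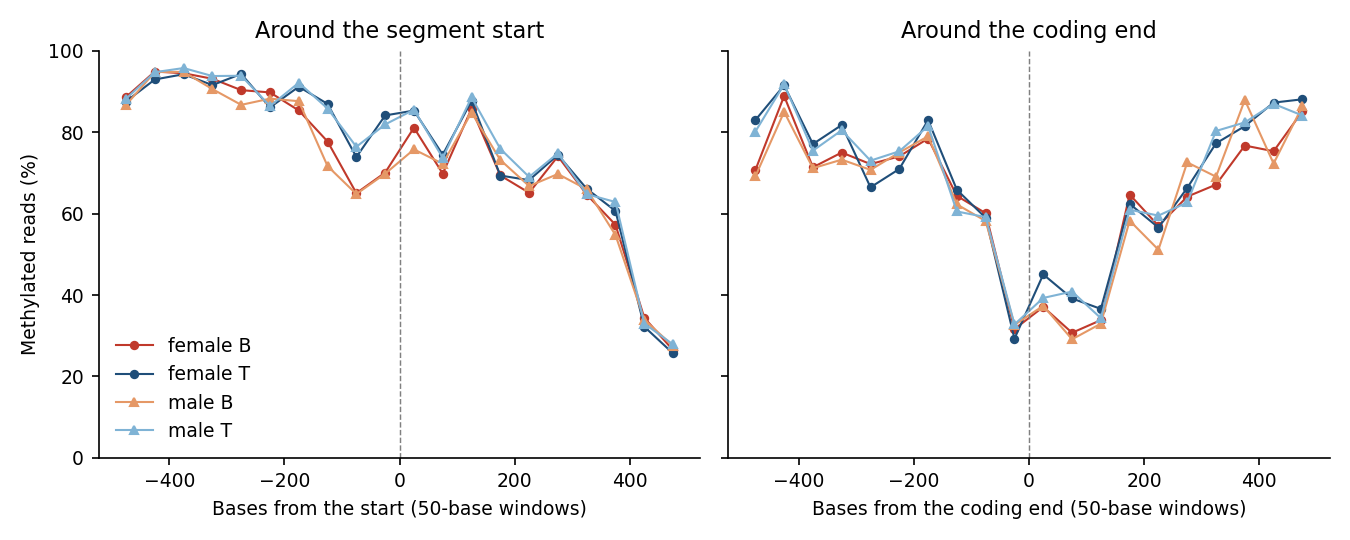
Pooled methylation level (% of reads, linear axis from 0 to 100) in windows of 50 bases by distance from the start (left) and from the coding end (right) of the Ighv segments, for the 4 files; CpGs listed in all files only. All 4 lines fall from over 90% upstream of the start to 29.3 to 32.8% just before the coding end; 50 to 100 bases after it the B files stand at 30.7 and 29.1% and the T files at 39.1 and 40.8%, and the B lines also run below the T lines around the start.

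A window of 150 bases to either side of the coding end held 268 CpGs of 136 segments. Its pooled level was 40.8% in the female B, 42.9% in the female T, 40.7% in the male B and 42.6% in the male T file. These levels are pooled over reads. The far set, which had the lowest level, gave 1239 of 2839 reads in the female B and 1778 of 5257 in the female T file. In the male files it gave 1402 of 3297 and 1699 of 5225 reads. The pooled B and T difference therefore also carries the difference in coverage, and the levels by set are given below. Outer CpGs, over 300 bases upstream of the start or downstream of the coding end, stood at 85.9, 88.5, 86.4 and 89.5%. The gap between outer and coding end CpGs was 45.1, 45.6, 45.7 and 46.8 points. Its B minus T difference was -0.87 points (exact permutation test, two-sided p = 0.667).

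The level at the coding end differed between kinds of segment in each of the 4 files, which is given as a description, since segments are not replicates. In V genes it was 31.3% in both B files and 33.3 and 33.5% in the female and male T files, and in pseudogenes 68.6 and 69.4% against 71.9 and 70.3%. The V genes in which a signal was found stood at 29.6 and 29.7% in the B files and 30.6 and 31.6% in the T files, and the pseudogenes in which one was found at 64.1 and 66.5% against 73.1% in both T files. V genes with no signal found stood at 39.0 and 37.9% against 46.6 and 43.5%, and pseudogenes with none found at 77.9 and 75.6% against 69.3 and 64.7%. V genes were thus below pseudogenes with and without a signal. Outer CpGs of V genes, at 80.9 to 87.2%, and of pseudogenes, at 90.7 to 92.2%, were much closer to each other.

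It also differed along the locus. In the near set the pooled level at the coding end was 45 and 45.6% in the B files and 43.3 and 41.4% in the T files. In the middle set it was 59.7 and 59.7% in the B files and 67.5 and 66.7% in the T files, a difference of -7.76 and -7.0 points, B minus T. In the far set it was 24.6 and 23.5% in the B files and 18.2 and 18.4% in the T files, higher in B cells by 6.45 and 5.04 points. The direction of the B and T difference was thus opposite in the middle and far sets, in both sexes. This difference between sets was not tested.

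**Figure D5:**
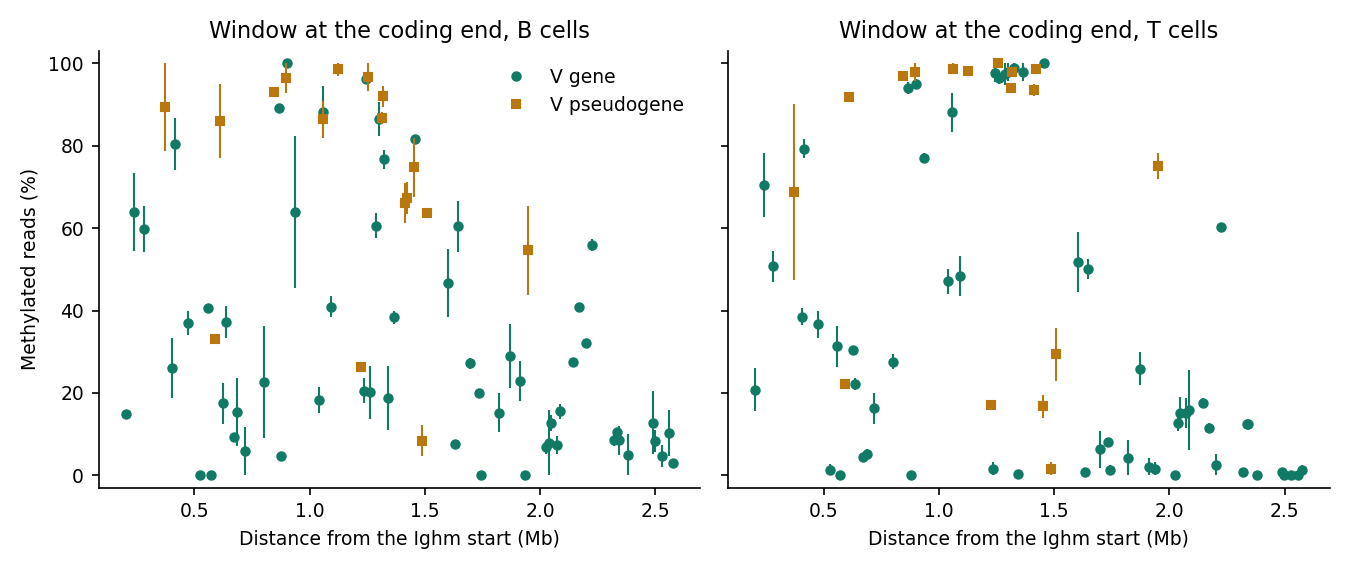
Methylation level (% of reads, linear axis) in the window of 150 bases to either side of the coding end against distance from the Ighm start in Mb, for the 76 segments with at least 2 CpGs there; points are the mean of the female and male file and lines join these files. V genes are green circles and pseudogenes orange squares. In T cells (right) many far segments lie near 0 and a cluster in the middle set lies near 100%; the pooled level is 67.5 and 66.7% in the middle and 18.2 and 18.4% in the far set, against 59.7 and 24.6 or 23.5% in B cells (left).

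Single segments spanned the whole range. Of the 76 segments with at least 2 CpGs in this window, 43 were under 50% in all 4 files, 20 of these under 20%, and 13 were over 80% in all 4. Ighv8-6, the V gene with the lowest level as a whole, had 0.0% in both B files (61 and 56 reads) and 3.51 and 11.6% in the T files (57 and 69 reads), with 50% of its CpGs in unique sequence. Ighv1-85, whose sequence is shown above, had 3.12, 2.56, 2.78 and 0.0% in the window. Ighv10-4 had 97.7 and 97.8% in the B files and 97.9 and 98.9% in the T files over its 11 CpGs. By family, the coding ends of the 4 Ighv9 segments were lowest, at 4.53 to 10.3% in the 4 files, and those of 3 Ighv10 segments stood at 89.8 to 97.9%.

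At Ighv1-18 the largest difference was at the CpG that follows the signal. The CpG 43 bases before the coding end, the first capitals of the sequence above, stood at 33.3 and 43.8% in the B files (9 and 16 reads) and at 95.2 and 96.8% in the T files (21 and 31 reads). The CpG 89 bases after it stood at 0.0 and 7.14% in the B files (13 and 14 reads) and at 94.7 and 100% in the T files (19 and 16 reads). The remaining CpG of Ighv1-18, 492 bases after the coding end, stood at 75 and 40% in the B files (8 and 5 reads). In the T files it was 100 and 90% (11 and 10 reads). At Ighv1-26 the CpG 89 bases after the coding end stood at 20 and 14.8% in the B files (25 and 27 reads) and at 100 and 95.0% in the T files (50 and 40 reads). The signals of these 2 segments are the same letters, with a spacer of 22 bases.

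A CpG between 80 and 105 bases after the coding end was listed in all files at 9 segments of the Ighv1 family in the middle set, at 89 bases in 6 of them and at 90, 96 and 99 bases in Ighv1-24, Ighv1-16 and Ighv1-22. The segments were not aligned to each other. At 6 of the 9, Ighv1-18, Ighv1-19, Ighv1-22, Ighv1-26, Ighv1-32 and Ighv1-36, it was at least 20 points lower in B than in T cells in both sexes. Their B files stood at 0.0 to 60% and their T files at 91.7 to 100%, on 5 to 50 reads each. At Ighv1-32, a pseudogene, it was 20 and 11.1% against 100 and 100%. At Ighv1-16 and Ighv1-24, among the same segments, it was 90.0% or more in both B files and 89.5% or more in both T files. At the pseudogene Ighv1-41 it was 66.7 and 42.9% against 18.2 and 34.8%, higher in B cells in both sexes. Pooled over the 9 segments it was 48.0 and 40.3% in the B files and 94.2 and 90.1% in the T files. Outside these 9 segments, a CpG in the same range was listed in all files at 7 more segments, of which none was at least 20 points lower or higher in B cells in both sexes. At Ighv1-71 in the far set it was 13.3% in both B files against 0.0 and 3.85%. These CpGs were picked out after their values were seen, and no test was made of them.

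Around the start of the segments the B files ran lower than the T files. Promoters of V segments hold an octamer that binds Oct factors, searched for as ATGCAAAT on both strands within 250 bases before the start. It was found in 127 of 185 segments (68.6%), against 42 of 2295 other genes on chromosome 12 (1.83%). Over 87 CpGs of 67 segments from 100 bases before to 50 bases after the start, the pooled level was 71.3 and 69.6% in the B files and 80.8% in both T files. The difference of -10.4 points had the exact permutation p of 0.333. These levels are pooled over reads. The far set, which had the lowest level, gave 495 of 875 reads in the female B and 734 of 1595 in the female T file. The pooled difference therefore also carries the difference in coverage. Of the 67 segments, 28 were lower in B cells in both sexes and 11 were higher. In the near, middle and far sets the difference, B minus T, was -5.81, -11.8 and -8.12 points in females and -7.69, -9.47 and -11.9 points in males. Where the octamer was found, the level was 69.8 and 67.8% in the B files and 80.2 and 80% in the T files, and where it was not, 75.9 and 74.4% against 82.4 and 82.9%. With the octamer 23 of 51 segments were lower in B cells in both sexes and 6 higher. Without it 5 of 16 were lower and 5 higher.
The 150 bases before the start of Ighv8-10, a pseudogene with the octamer (in capitals) and 2 CpGs after it, are shown on the minus strand of GRCm38. It was chosen after its values were seen and differed more than the pooled level.
Ighv8-10 (chr12:115519783-115519932): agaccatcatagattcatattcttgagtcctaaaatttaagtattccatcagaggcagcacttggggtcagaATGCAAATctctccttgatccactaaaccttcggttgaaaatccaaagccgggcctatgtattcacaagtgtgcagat
These 2 CpGs stood at 56.8% in the female B file (37 reads), 90.6% in the female T file (53 reads), 61.9% in the male B file (42 reads) and 95.5% in the male T file (44 reads).

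In the 50 bins of 50 kb that span the segments the median difference was -1.91 points, with 37 bins lower in B cells in both sexes and 9 higher. The share of all bins that do so was not computed, so nothing is read from this count. In this fit, added after the data were seen, 2 bins passed an adjusted p under 0.05 (limma's squeezed dispersion), where 5.51% of all bins did. These 2 bins are given because they passed. The bin centred 1102 kb from Ighm, which holds 5 segments, stood at 89.2% in both B files and 93.9 and 93.5% in the T files. The bin centred 1302 kb from Ighm, which holds 6 segments, stood at 87.8 and 88.1% in the B files and 92.8 and 92.5% in the T files.

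The low level at the coding end was compared with the other receptor loci. In the same window the Igkv segments stood at 68.0 and 67.8% in the B files and 79.5 and 80% in the T files. The Trav and Trdv segments stood at 68.8 and 72.4% in the B files and 52.8 and 54.3% in the T files. The Trbv segments stood at 59.1 and 63.1% against 41.2 and 41.6%. The Ighv level of 40.7 to 42.9% was below those of Igkv and of Trav and Trdv in each of the 4 files, and below that of Trbv in the B files. The difference between loci was not tested.

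No segment was called between female and male files. For methylation 0 of 134 segments were called and 0 had an unadjusted p under 0.05 (quasi-binomial model with limma's squeezed dispersion; 0.0% of all autosomal regions called). For coverage 0 of 172 were called and 7 had an unadjusted p under 0.05 (limma; 0.00795% of all regions called). The largest difference in methylation between the sexes at a segment was 16.2 points.

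The genes of the recombination machinery and of factors that bind the locus were not called for methylation, over each gene with 500 bases to either side. Of 26 such genes, 0 were called higher and 0 lower in B cells, with a median difference of 1.21 points. Ikzf1, a zinc finger factor of lymphocyte development, was 17.5 points higher in B cells (quasi-binomial F test, adjusted p = 0.0156), below the 20 points required. A further 4 genes had an adjusted p under 0.05 and a smaller difference. Il7r (12 points), Stat5b (8.72 points) and Pax5 (2.71 points) were higher in B cells, and Tcf3 was lower, at -8.93 points (quasi-binomial F test, adjusted p = 0.0464, 0.0245, 0.0433 and 0.0239). Rag1 and Rag2, the subunits of the recombinase, differed by -6.52 and -5.49 points (quasi-binomial F test, adjusted p = 0.127 and 0.425). For coverage 2 of the 26 genes were called lower, Pax5 and Ebf1, both B cell factors, by the small log2 differences of -0.24 and -0.11 (limma adjusted p = 0.000173 and 0.00868).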

How the data were processed

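Whole-genome bisulfite libraries of 8 samples were represented by 4 deposited files, 1 for each sex and cell type, which were each taken as the authors' value of a group, with no error between samples; the sources used here do not say if both samples were merged into it. Per the labels, reads were processed with Trim Galore, FastQC and Bismark 0.13.1 against mm10. Duplicate removal and other filters are not given in the sources used here. The deposited files give, per CpG with strands merged, the methylation level as a fraction beside a read count (the coverage), and list no CpG under 5 reads, which removes CpGs that lost reads. Methylated reads were recovered as fraction times coverage, rounded (largest gap to a whole read 0.000995).

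Methylation of each gene with 500 bases to either side was fitted by a quasi-binomial model of cell type plus sex, over CpGs listed in all 4 files (at least 3), with dispersions squeezed by limma 3.58.1 in R 4.3.3, F tests and Benjamini-Hochberg adjustment over all genes. A call needed an adjusted p under 0.05 and 20 points. Coverage was the mean over CpGs listed in any file, unlisted ones at 4 reads, divided by the autosomal median, on log2, with limma and a prior variance that followed the number of CpGs; bins of 50 kb needed 20 CpGs. The groups have no replicate files. With cell type and sex fitted, the residual spread is how far the B and T difference differs between the sexes. It has 1 degree of freedom before squeezing. Single values were compared by exact permutation over the 4 files. On simulated data 189 of 200 changes of 35 points in methylation were recovered among 49551 regions with 0 false calls, and 198 of 200 log2 coverage changes of -1.3 among 50335 with 7 false calls. Both simulations took their spread from the prior that the fit itself assumes, so the share recovered is not a rate for the real segments. In the data Ighv1-35, at 33.6 points, and Ighv1-26, at -32.6 points, were not called in the main fit.

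Named segments were the 3 nearest to and 3 farthest from Ighm, the one with the most CpGs in each of 5 distance sets, up to 6 called in each direction for methylation and for coverage, and the lowest and highest methylation. Gene lists were receptor segments, constant region genes, neighbours within 1 Mb, recombination factors and promoters (1 kb to either side) of cell type markers. The promoter of 1 marker is not reported here. The members and lists were chosen with earlier results of these data known. Alternatives changed the read minimum, the treatment of unlisted CpGs, the scaling, the flanks, mappable sequence, the prior, the test and the files included. Sequences were read from the GRCm38 reference; 100-base uniqueness was checked on chromosome 12 only.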

Additional observations from a re-analysis of the deposited data

Results flagged for a closer look

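At 6 named values the B and T cell difference pointed one way in females and the other in males; the difference between the sexes was not tested at any of them. For coverage (log2 B over T) these were Ighv1-85, at 0.28 in females and -0.042 in males, Ighv8-10, at 0.076 and -0.54, and Ighv8-6, at 0.38 and -0.21. For methylation (points, B minus T) these were Ighv1-84, at 6.54 in females and -14.8 in males, Ighv5-12, at -11.0 and 1.43, and Ighv2-6-8, at -9.08 and 2.05. None of these 6 values was called in the fit over both sexes.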

How the results depend on the processing

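No coverage call was higher in B cells under any setting. Against 52 segments lower in B cells, 30 of 143 were called over listed CpGs alone, 28 of 77 without flanks, and 0 of 172 with 1 prior variance for all regions; leaving out 1 file gave 47 to 71 and the other 5 settings 39 to 76. Scaling by chromosome 12 outside the locus gave 76 and by the autosomal mean 43. Against 37 of 50 bins, 71 of 99 bins of 25 kb were called, and leaving out 1 file gave 25 to 40. The near to far difference of -0.94 was -0.82 over listed CpGs, -1.31 with unlisted CpGs at 0 reads and -1.21 for the nearest and farthest 37 segments, and -0.97 to -0.91 without 1 file; none of its p-values can pass 0.05. Against the 1 segment called for methylation, limma on log2 read ratios called 0 (66 at an unadjusted p under 0.05), Fisher's exact test in both pairs 9, segments without flanks 0 of 54 (4 unadjusted), the fit without sex 2, the trended prior 9 and the trended prior over unique CpGs 8 of 116 (unique CpGs with the main prior 1); leaving out 1 file gave 0 to 0 (8 to 13 unadjusted). Of the named segments, Ighv10-4 lost its coverage call with unlisted CpGs at 0 reads (log2 -0.92 in both, limma adjusted p = 0.0763), and the 8 segments called only with the trended prior are given in the report. No called value of a named segment changed sign; the coverage difference at Ighv1-62-2, not called at -0.17, became 0.014 over listed CpGs and 0.086 over unique ones. The causes were not tested. No paired analysis was possible because the groups share no replicate numbers. Depth limits the methylation tests most near Ighm, where the B files list 60.5 and 69.1% of CpGs.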
